A study of Mus musculus with 12 samples.

Results

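The 10 genes described here are the glucocorticoid receptor gene Nr3c1, Hsd11b1, which encodes the enzyme that regenerates active glucocorticoid inside cells, and 8 classic targets of the receptor. The targets are Tsc22d3, Fkbp5, Zbtb16, Sgk1, Errfi1, Cdkn1a, Mt1 and Mt2. The members were chosen by symbol, and all 10 of 10 symbols matched a gene row, out of 56647 rows with a value in every library. All 10 passed the filter on low counts that left 9505 genes for testing. Tsc22d3 was noticed, and the set built around it, because of its difference between infarcted and sham mice in these same data. The values of MI against sham vehicle mice are therefore given as a description for every member, and no p is given for Tsc22d3 in any comparison. Counts of members past a threshold run over all 10 members, and nothing is read from them for Tsc22d3 or for MI against sham vehicle mice.

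The 3′ ends of transcripts were sequenced in heart muscle tissue from 10 wild type mice. In 4 NECA-treated MI mice, myocardial infarction (MI) was modelled and NECA was delivered locally into the infarcted heart muscle. NECA, N-ethylcarboxamidoadenosine, is an adenosine analogue that activates adenosine receptors. A group of 3 MI mice had left coronary ligation, and the labels name no vehicle for them. The last group, 3 sham vehicle mice, is labelled as sham and as treated with vehicle. No dose, time after ligation, age, sex or strain was given in the sources used here. Nor do these sources say which part of the heart was sampled in each animal.

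Glucocorticoids such as corticosterone, the main one in mice, enter cells and bind a receptor held ready in the cytoplasm by heat shock proteins. The bound receptor moves to the nucleus, where it binds DNA at glucocorticoid response elements and raises transcription of target genes. Bound to other factors, it lowers transcription of many inflammatory genes. Corticosterone in blood varies through the day and with stress, so the target genes are also known as readouts of hormone exposure. In the heart, the receptor acts in cardiomyocytes, fibroblasts and macrophages alike. In tissue RNA of this kind, fewer cells of a type and less RNA per cell cannot be told apart.

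Each mouse had 1 library of 959840 to 1330259 counts, and MI mice 2 and 3 each had another, named 1st in the labels, of 30745429 and 27130817 counts. The comparisons use the library of matched depth, the 2nd for these 2 mice. Values are CPM, counts scaled to a library total of 1e6, unless another unit is named, and 3 counts correspond to 2.26 to 3.13 CPM in the 10 libraries of matched depth. The ventricular cardiomyocyte genes were abundant in every mouse, with summed levels of 50903 to 55911 CPM in NECA-treated MI mice, 38914 to 50598 CPM in MI mice and 49707 to 58226 CPM in sham vehicle mice. Sham vehicle mouse 3 stood apart from the other sham vehicle mice, because 3 of the 4 listed atrial genes, Myl4, Myl7 and Sln, had 1346, 785 and 285 CPM there, against at most 6.22 CPM in the other mice at matched depth. Nppa, the other listed atrial gene, was high both there (4008 CPM) and in MI mouse 3 (3831 CPM), against at most 290.2 CPM in the other mice. The fat cell gene Adipoq had 108 CPM in sham vehicle mouse 3, against at most 23.1 CPM in the other mice. Summed lymphocyte genes were highest in NECA-treated MI mouse 1 (53.3 CPM) and sham vehicle mouse 3 (42.4 CPM), against at most 19.5 CPM in the other mice. Fold changes without sham vehicle mouse 3 are named below for Fkbp5, Sgk1, Cdkn1a, Nr3c1 and Hsd11b1. They are not given for genes outside the set. NECA-treated MI mouse 4 had the highest summed skeletal muscle genes, 655 CPM, against at most 464 CPM in the other mice. Its Myh4 and Myh1 were at 97.9 and 91.3 CPM, against at most 16.5 CPM in MI and sham vehicle mice. In its group it was highest for Tsc22d3, Zbtb16, Sgk1, Errfi1 and Cdkn1a, and lowest for Fkbp5 and Hsd11b1. The part of these transcripts in the member levels was not tested. Nothing in the labels says whether mice of a group were operated on together, so p-values measure the spread between these animals only.

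No member passed an adjusted p of 0.05 in a comparison with NECA-treated MI mice. Against MI mice, 0 of 10 members passed the edgeR test, as did 0.00% of the 9505 genes tested. There, 0 members had an unadjusted p under 0.05, beside 577 of the 9505 tested genes. Of the 10 fold changes, 6 were positive and 4 negative, and the median log2 fold change was 0.08, against -0.01 over all tested genes. Against sham vehicle mice, 0 of 10 members passed, where 0.0105% of tested genes did. Of the 9 members other than Tsc22d3, Zbtb16 alone had an unadjusted p under 0.05 there, beside 573 of the 9505 tested genes. In all, 8 fold changes were positive and 2 negative, and the median was 0.26, against -0.01 over all tested genes. DESeq2 and limma also called 0 members in both comparisons. The comparisons share mice with the one that drew attention to the set, so they are not independent of it. Opposite signs in NECA-treated MI against MI mice and in MI against sham vehicle mice can come from the shared MI mice alone.

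In MI against sham vehicle mice, 0 of 10 members passed the same threshold, beside 0.0736% of tested genes. Here 7 fold changes were positive and 3 negative, with a median of 0.33 against -0.01 over all tested genes. MI mice lay wholly above sham vehicle mice for 2 members, Tsc22d3 and Errfi1, beside 13.5% of tested genes whose groups did not overlap in either direction. These counts describe the contrast that chose the set and carry no test.

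**Figure D1:**
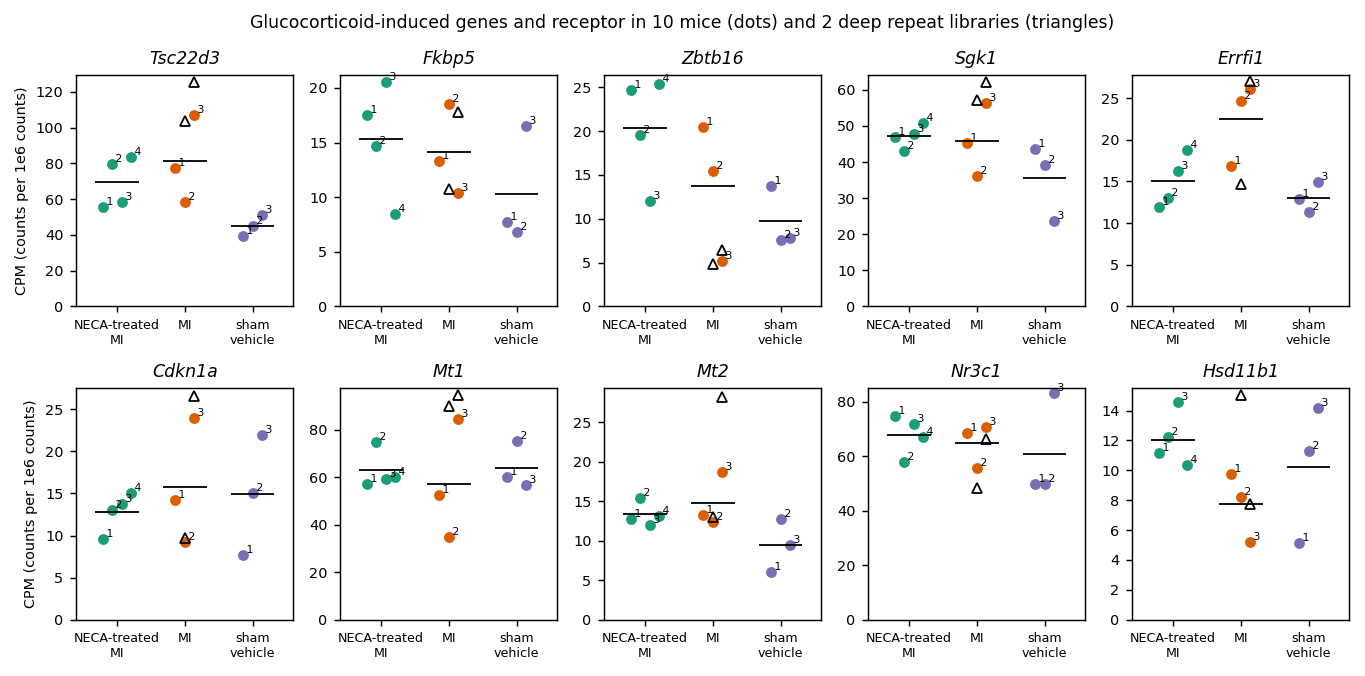
Level of each of the 10 genes in CPM (y axis, from 0) in NECA-treated MI, MI and sham vehicle mice. Numbered dots are mice in libraries of matched depth, lines are group means, and open triangles are the deep 1st libraries of MI mice 2 and 3. Tsc22d3 shows every dot and triangle of the infarcted groups above the 3 sham vehicle mice, while Nr3c1 and Cdkn1a show groups that overlap.

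**Figure D2:**
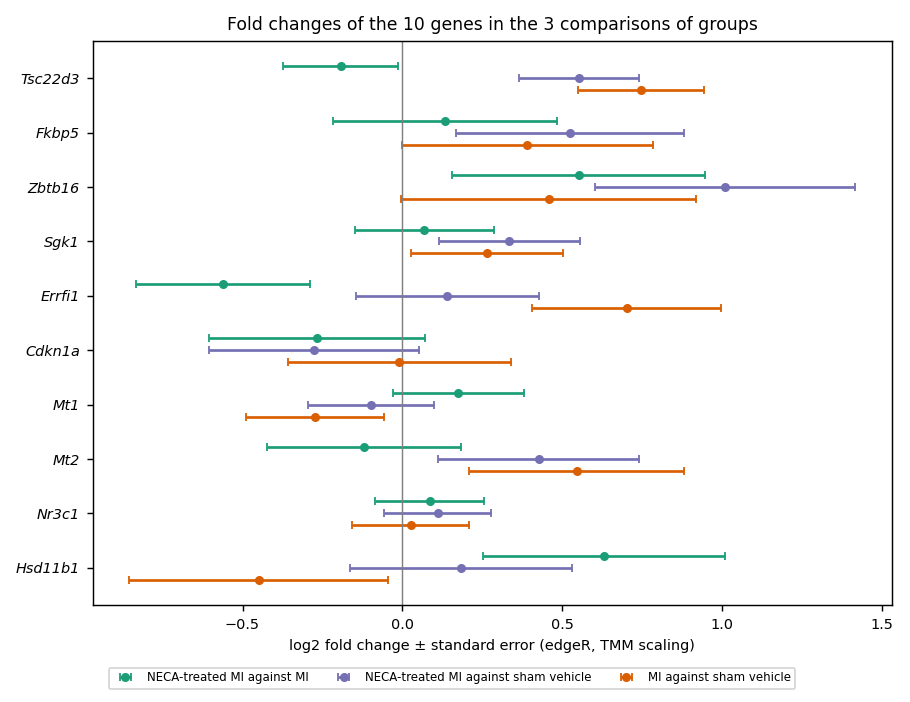
Log2 fold change (x axis) of each gene in 3 comparisons, with bars of 1 standard error from edgeR. Tsc22d3 sits at 0.55 in NECA-treated MI against sham vehicle mice and at 0.75 in MI against sham vehicle mice, and the fold changes of Nr3c1 lie between 0.03 and 0.11.

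Tsc22d3 (ENSMUSG00000031431) encodes GILZ, a leucine zipper protein that binds NF-kB and AP-1 and mediates part of the anti-inflammatory action of glucocorticoids. It had 55.7, 79.7, 58.2 and 83.8 CPM in the 4 NECA-treated MI mice. It had 77.3, 58.7 and 107.3 CPM in the 3 MI mice, against 39.4, 45.1 and 51.1 CPM in the 3 sham vehicle mice. Every infarcted mouse, with or without NECA, lay above every sham vehicle mouse, and the infarcted groups overlapped each other. NECA-treated MI mice lay wholly above sham vehicle mice for this 1 member, beside 7.94% of tested genes whose groups did not overlap in that comparison. The means were 69.3 ± 14.5 CPM in NECA-treated MI mice, 81.1 ± 24.5 CPM in MI mice and 45.2 ± 5.82 CPM in sham vehicle mice (SD, n = 4, 3 and 3). The log2 fold changes were 0.55 ± 0.19 (SE) in NECA-treated MI against sham vehicle mice, 0.75 ± 0.20 in MI against sham vehicle mice and -0.19 ± 0.18 in NECA-treated MI against MI mice.

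The size of the Tsc22d3 difference in MI mice depended on which library of the same animal was read. The 1st and 2nd libraries gave 104.0 and 58.7 CPM in MI mouse 2, and 125.4 and 107.3 CPM in MI mouse 3. With the 1st libraries in place of the 2nd, the log2 fold change in MI against sham vehicle mice was 1.10 ± 0.21, and with both libraries summed it was 1.09 ± 0.21. The fold change was positive in 20 of 20 other settings in each comparison with sham vehicle mice. It ran from 0.58 to 1.10 for MI mice and from 0.44 to 0.65 for NECA-treated MI mice. These settings reuse the same mice, and every infarcted mouse lay above every sham vehicle mouse, so the sign could hardly turn. NECA-treated MI against MI mice gave values from -0.55 to -0.03, negative in 20 of 20, and the value nearest to 0 was the one without MI mouse 3. Without sham vehicle mouse 3, the other sham vehicle mice averaged 42.3 CPM.

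**Figure D3:**
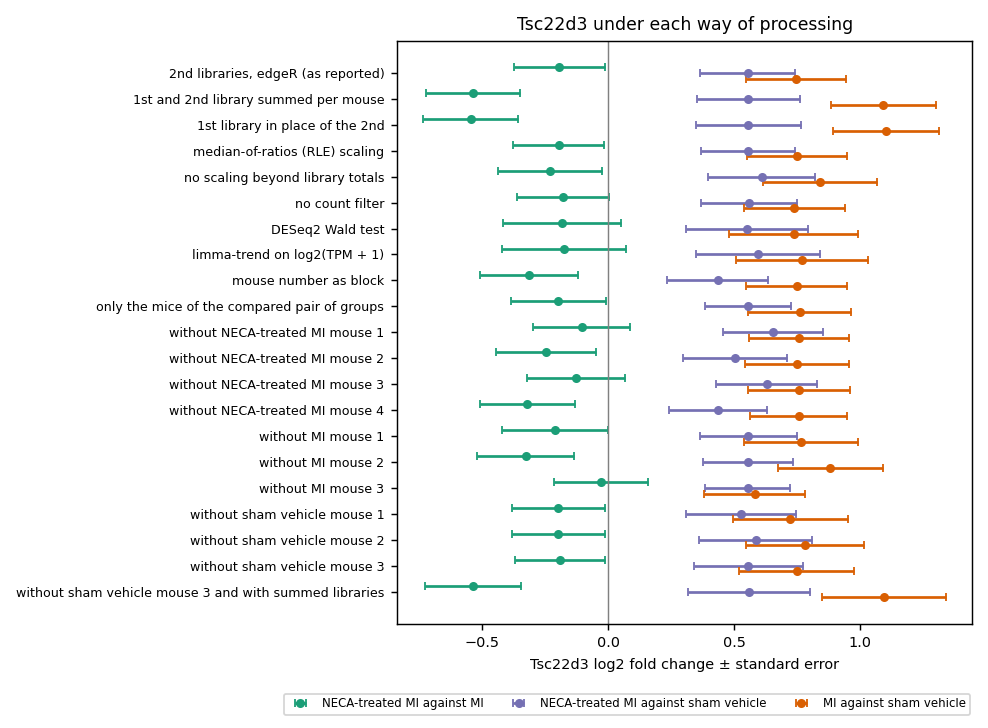
Log2 fold change of Tsc22d3 (x axis, bars of 1 standard error) in the 3 comparisons under the reported settings and 20 others (y axis). Both comparisons with sham vehicle mice stay above 0 throughout, and MI against sham vehicle mice moves to 1.09 and 1.10 where the deep 1st libraries enter. All settings reuse the same mice.

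The summed macrophage genes, 8 of 8 matched and none at 0 in any library, had 440 to 733 CPM in NECA-treated MI mice, 314 to 1043 CPM in MI mice and 188 to 413 CPM in sham vehicle mice. MI mouse 3 was highest both for these genes and for Tsc22d3. The fibroblast genes, 6 of 6 matched and none at 0, had 842 to 2624, 777 to 5611 and 407 to 1136 CPM in the same order of groups, and MI mouse 3 was again highest. The part of these cell types in the Tsc22d3 values was not tested.

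The 5 genes of at least 10 CPM whose level followed that of Tsc22d3 most closely over the 10 mice were Slc50a1, Ccl21a, Mb21d2, Tgfb1 and Cyth3, by Pearson's r of log2 CPM. Slc50a1, a sugar transporter gene, had r = 0.93, and Ccl21a, a lymphatic chemokine gene whose close copies make its counts uncertain, also had r = 0.93. Mb21d2 had r = 0.92, while Tgfb1, which encodes a growth factor of wound healing, and Cyth3, which encodes an exchange factor for ARF GTPases, had r = 0.90. Slc50a1 had 21.5, 30.9, 22.2 and 28.3 CPM in NECA-treated MI mice and 26.7, 21.6 and 32.3 CPM in MI mice, against 15.4, 16.5 and 15.7 CPM in sham vehicle mice. Slc50a1 thus had the same split between infarcted and sham mice as Tsc22d3. Within the set itself, likeness to Tsc22d3 ranged widely, from r = 0.76 for Mt2 and 0.54 for Errfi1 down to -0.30 for Hsd11b1. These r values describe 10 mice that share 3 groups and the 5 genes were picked for their high r, so they carry no p.

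Fkbp5 (ENSMUSG00000024222) encodes FKBP51, a cochaperone that lowers the receptor's affinity for hormone in a short feedback loop. It had 17.5, 14.6, 20.5 and 8.48 CPM in NECA-treated MI mice, 13.3, 18.5 and 10.4 CPM in MI mice and 7.72, 6.77 and 16.5 CPM in sham vehicle mice. All 3 groups overlapped, with sham vehicle mouse 3 above the 2 other sham vehicle mice, which averaged 7.24 CPM. In NECA-treated MI mice the log2 fold change was 0.13 ± 0.35 against MI mice (edgeR adjusted p = 0.961) and 0.52 ± 0.36 against sham vehicle mice (adjusted p = 0.884). In MI against sham vehicle mice it was 0.39 ± 0.39. Without sham vehicle mouse 3, these fold changes against sham vehicle mice were 0.93 ± 0.41 for NECA-treated MI mice (adjusted p = 0.496) and 0.79 ± 0.45 for MI mice. Fkbp5, often used as a hormone readout, thus passed the threshold in no comparison. Both fold changes against sham vehicle mice were positive in 20 of 20 other settings. At 9 to 24 counts a library, these values do not show that Fkbp5 was unchanged.

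Zbtb16 (ENSMUSG00000066687) encodes PLZF, a zinc finger repressor that glucocorticoids induce strongly in many cell types. It had 24.6, 19.5, 12.0 and 25.4 CPM in NECA-treated MI mice, 20.4, 15.4 and 5.21 CPM in MI mice and 13.7, 7.52 and 7.86 CPM in sham vehicle mice. NECA-treated MI mouse 3, at 12.0 CPM, lay below sham vehicle mouse 1, at 13.7 CPM, and the 3 other NECA-treated MI mice lay above all sham vehicle mice. Against sham vehicle mice, the log2 fold change of NECA-treated MI mice was 1.01 ± 0.41, the highest of the 10 members, and it did not pass (edgeR adjusted p = 0.821). It was positive in 20 of 20 other settings, from 0.80 to 1.40. Against MI mice it was 0.55 ± 0.40 (adjusted p = 0.853). For MI against sham vehicle mice it was 0.46 ± 0.46, and the 2 libraries of MI mouse 2 disagreed (4.88 CPM in the deep library, 15.4 CPM in the shallow one). With the 1st libraries in place of the 2nd, that fold change was -0.33 ± 0.53, and the one against MI mice was 1.34 ± 0.46 (adjusted p = 0.363).

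Sgk1 (ENSMUSG00000019970) encodes a kinase of ion transport and cell survival that was named for its induction by serum and glucocorticoid. It is shown with sequence because 1 of its 6 promoters holds the classic palindrome of a glucocorticoid response element, the half-sites AGAACA and TGTTCT 3 bases apart. Promoters ran from 250 bases before to 50 after a RefSeq gene start in build GRCm38.p6, and both strands were searched. Capitals mark the half-sites, at positions -189 to -175 from the start, at chr10:21993694-21993721 on the plus strand.
Sgk1 promoter: tgcggaaAGAACAgaaTGTTCTcggaga
The palindrome occurred in 3 of 32817 promoters (0.00914%). It was in none of the promoters of the 7 other members that were searched. The absence of these letters from so short a window says nothing of binding elsewhere.

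Sgk1 had 46.9, 43.1, 47.9 and 50.9 CPM in NECA-treated MI mice, 45.3, 36.0 and 56.3 CPM in MI mice and 43.7, 39.1 and 23.6 CPM in sham vehicle mice. NECA-treated MI mice spanned a narrow range and overlapped, among the sham vehicle mice, with mouse 1 only. Their log2 fold change was 0.33 ± 0.22 against sham vehicle mice (edgeR adjusted p = 0.875) and 0.07 ± 0.22 against MI mice (adjusted p = 0.970). Sham vehicle mouse 3, the mouse with the highest summed atrial and fat cell genes at matched depth, was the lowest. Without it the sham vehicle mean was 41.4 CPM in place of 35.5 CPM, and the fold change of NECA-treated MI mice 0.04 ± 0.19. MI against sham vehicle mice had 0.27 ± 0.24, with 0.54 ± 0.24 in the 1st libraries and -0.03 ± 0.21 without sham vehicle mouse 3.

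Of 8 relatives and substrates of the kinase, 6 were tested, and 0 rose or fell in any comparison (edgeR and DESeq2). The lowest p in NECA-treated MI against sham vehicle mice was that of Sgk3, a sister kinase, with a log2 fold change of -0.81 ± 0.37 (adjusted p = 0.821). Sgk3 was also lowest in p against MI mice, at -0.52 ± 0.39 (adjusted p = 0.853). Ndrg1, a phosphorylation target of SGK1, had -0.23 ± 0.18 against MI mice, 0.11 ± 0.18 against sham vehicle mice and 0.35 ± 0.20 in MI against sham vehicle mice. Nedd4, an E3 ubiquitin ligase gene related to the SGK1 target Nedd4l, had -0.19 ± 0.17 in MI against sham vehicle mice. Of these 6, Sgk3 alone had an unadjusted p under 0.05, and in that first comparison only. The median log2 fold changes of the 6 were -0.01 in NECA-treated MI against MI mice, 0.0039 in NECA-treated MI against sham vehicle mice and -0.09 in MI against sham vehicle mice, each beside -0.01 over all tested genes. With summed libraries the first of these was 0.07.

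Errfi1 (ENSMUSG00000028967) encodes MIG6, which binds EGF receptor kinases and shuts them off, and is induced by glucocorticoids, growth factors and stress. It had 11.9, 13.0, 16.3 and 18.8 CPM in NECA-treated MI mice, 16.9, 24.7 and 26.0 CPM in MI mice and 12.9, 11.3 and 14.9 CPM in sham vehicle mice. NECA-treated MI mice thus overlapped with both other groups, and MI mice lay above the sham vehicle mice. In NECA-treated MI against MI mice the log2 fold change was -0.56 ± 0.27 and did not pass (edgeR adjusted p = 0.819). It was negative in 20 of 20 other settings, from -0.73 to -0.35. Against sham vehicle mice, NECA-treated MI mice had 0.14 ± 0.29 (adjusted p = 0.978). MI against sham vehicle mice had 0.70 ± 0.30, positive in 20 of 20 other settings, from 0.46 to 0.88. MI mouse 2 had 14.7 CPM in its 1st library, below sham vehicle mouse 3, so the split between these groups held in the 2nd libraries only.

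An Errfi1 promoter holds a cAMP response element, TGACGTCA, marked in capitals, at positions -51 to -44 from the start, at chr4:150855009-150855036 on the plus strand (GRCm38.p6). It is shown because adenosine receptors act through cAMP, whose response factor CREB recognises these letters.
Errfi1 promoter: ctgcgggcgtTGACGTCAcgttgtcgct
The element occurred in 1.79% of all promoters and in no other member that was searched.

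Of 10 ErbB receptor and ligand genes, the targets of MIG6 and their activators, 4 had enough counts to be tested. No gene among them rose or fell in any comparison (edgeR and DESeq2), and 1 had an unadjusted p under 0.05, in MI against sham vehicle mice. This was Erbb3, a neuregulin receptor gene, with -1.19 ± 0.39 (adjusted p = 0.247). Erbb3 had 0.62 ± 0.39 in NECA-treated MI against MI mice and -0.57 ± 0.33 against sham vehicle mice (adjusted p = 0.835 and 0.839). Hbegf, a ligand of the EGF receptor, had -0.28 ± 0.36 against MI mice and 0.51 ± 0.39 in MI against sham vehicle mice. Erbb2, the partner receptor without a ligand of its own, had -0.43 ± 0.38 in NECA-treated MI against sham vehicle mice. The 4 genes had a median of -0.17 against MI mice, -0.10 against sham vehicle mice and 0.20 in MI against sham vehicle mice (0.08 with summed libraries).

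Cdkn1a (ENSMUSG00000023067) encodes p21, an inhibitor of cyclin-dependent kinases that p53 and glucocorticoids induce. It had 9.54, 13.0, 13.7 and 15.1 CPM in NECA-treated MI mice, 14.2, 9.26 and 24.0 CPM in MI mice and 7.72, 15.0 and 22.0 CPM in sham vehicle mice. The NECA-treated MI mice lay inside the range of both other groups. Their log2 fold change was -0.27 ± 0.34 against MI mice (edgeR adjusted p = 0.923) and -0.28 ± 0.33 against sham vehicle mice (adjusted p = 0.951). MI against sham vehicle mice had -0.01 ± 0.35. The highest sham vehicle value was again that of mouse 3, and the 2 others averaged 11.4 CPM, with which the log2 fold change of NECA-treated MI mice was 0.00026.

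Of 12 further p53 target and cell cycle inhibitor genes, 9 were tested, and 0 rose or fell in any comparison (edgeR and DESeq2). Their median log2 fold change was -0.05 against MI mice, -0.07 against sham vehicle mice and 0.02 in MI against sham vehicle mice. With summed libraries the first was -0.18 and the last 0.11. Ccng1, the cyclin G gene induced by p53, was the 1 gene with an unadjusted p under 0.05, at -0.67 ± 0.22 in MI against sham vehicle mice (adjusted p = 0.247). In NECA-treated MI against sham vehicle mice Ccng1 had -0.38 ± 0.20 (adjusted p = 0.837). Phlda3, an inhibitor of AKT, had -1.12 ± 0.68 against MI mice and -1.01 ± 0.67 against sham vehicle mice, where sham vehicle mouse 3 alone had 39.3 CPM and the 2 others 5.15 and 6.01 CPM. Cdkn1b, which encodes the related inhibitor p27, had -0.34 ± 0.22 against MI mice and 0.20 ± 0.23 in MI against sham vehicle mice.

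Mt1 and Mt2 encode metallothioneins, small proteins that bind zinc and copper, and both respond to glucocorticoid and to metal. Metal acts through the factor MTF1, which binds metal response elements with the core TGCACNC or TGCGCNC. The promoter windows of Mt1 held 3 such cores and those of Mt2 held 4, on either strand. Each is shown in capitals, because these 2 members carry more of them than any other member that was searched. A window with at least 1 core was common, at 25.7% of all promoters, and Sgk1 and Hsd11b1 held 1 each. The coordinates are on GRCm38.p6, plus strand. Those of Mt1 are chr8:94179055-94179082, chr8:94179080-94179107 and chr8:94179098-94179125, from position -23 to 27 from the start.
Mt1 site A: cggtcccgctgTGCACACtggcgctcca
Mt1 site B: ccagggagctcTGCACTCcgcccgaaaa
Mt1 site C: cgcccgaaaagTGCGCTCggctctgcca
Those of Mt2 are chr8:94172384-94172411, chr8:94172479-94172506, chr8:94172557-94172584 and chr8:94172611-94172638, from position -223 to 11 from the start. The end of the Mt2 window was not found near the start of a GENCODE M21 transcript of the gene, unlike those of the other members searched. Positions from the Mt2 start are therefore less certain.
Mt2 site A: agcatcgcctcTGCACCCggcccctcgg
Mt2 site B: cgcagacccttTGCGCTCagctcctttg
Mt2 site C: ggggggagggcGTGTGCAggctctgtcc
Mt2 site D: gaattcgggtcGTGCGCAggcccagggg

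Mt1 (ENSMUSG00000031765) had 57.2, 74.8, 59.0 and 60.3 CPM in NECA-treated MI mice, 52.4, 35.0 and 84.4 CPM in MI mice and 60.03, 75.2 and 56.6 CPM in sham vehicle mice. NECA-treated MI mice and sham vehicle mice covered nearly the same range, and MI mice spread beyond it at both ends. NECA-treated MI mice had a log2 fold change of 0.17 ± 0.20 against MI mice (edgeR adjusted p = 0.918) and -0.10 ± 0.20 against sham vehicle mice (adjusted p = 0.978). MI against sham vehicle mice had -0.27 ± 0.22, and 0.24 ± 0.22 with the 1st libraries in place of the 2nd. The deep library of MI mouse 2 had 90.2 CPM and the shallow one 35.0 CPM. Mt1 and Mt2 are similar in sequence, and reads that the counting could not place uniquely may have been divided between them.

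Mt2 (ENSMUSG00000031762) had 12.7, 15.5, 12.0 and 13.2 CPM in NECA-treated MI mice, 13.3, 12.3 and 18.8 CPM in MI mice and 6.003, 12.8 and 9.43 CPM in sham vehicle mice. Sham vehicle mouse 2 overlapped with both infarcted groups, and the 2 other sham vehicle mice lay below them. Log2 fold changes of NECA-treated MI mice were 0.43 ± 0.31 against sham vehicle mice (edgeR adjusted p = 0.887) and -0.12 ± 0.30 against MI mice (adjusted p = 0.961). MI against sham vehicle mice had 0.55 ± 0.34. Both fold changes against sham vehicle mice were positive in 20 of 20 other settings, where those of its neighbour Mt1 took either sign.

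Of 8 genes of metal handling and oxidative stress, 7 were tested and 0 rose or fell in any comparison (edgeR and DESeq2). Hmox1, which encodes the heme-degrading enzyme heme oxygenase 1, was the 1 gene with an unadjusted p under 0.05, and had it in both comparisons with sham vehicle mice. Hmox1 had 12.7, 20.3, 11.1 and 9.42 CPM in NECA-treated MI mice, 14.2, 11.3 and 13.5 CPM in MI mice and 2.57, 3.76 and 8.64 CPM in sham vehicle mice. Both infarcted groups lay above the sham vehicle mice, with log2 fold changes of 1.36 ± 0.39 for NECA-treated MI mice (adjusted p = 0.604) and 1.29 ± 0.42 for MI mice (adjusted p = 0.247). Groups did not overlap for 7.94% and 13.5% of tested genes in these comparisons, and Hmox1 was named for its low p. The 2.57 CPM of sham vehicle mouse 1 are 3 counts. In MI mouse 2, Hmox1 had 8.36 CPM in the 1st library, which is below sham vehicle mouse 3. Mtf1, the metal sensor itself, had 0.34 ± 0.31 and the zinc importer gene Slc39a14 had -0.26 ± 0.18 in NECA-treated MI against MI mice. The zinc exporter gene Slc30a4 had 0.37 ± 0.27 in NECA-treated MI and 0.48 ± 0.29 in MI against sham vehicle mice. Over the 7 genes the median was -0.11 in NECA-treated MI against MI mice, 0.02 in NECA-treated MI against sham vehicle mice and 0.21 in MI against sham vehicle mice. With summed libraries it was -0.04 in NECA-treated MI against MI mice and 0.03 in MI against sham vehicle mice.

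Nr3c1 (ENSMUSG00000024431), the receptor itself, had 74.7, 57.7, 71.9 and 66.9 CPM in NECA-treated MI mice, 68.4, 55.6 and 70.8 CPM in MI mice and 49.7, 49.6 and 83.3 CPM in sham vehicle mice. The infarcted groups lay between sham vehicle mice 1 and 2 on one side and sham vehicle mouse 3 on the other. NECA-treated MI mice had log2 fold changes of 0.09 ± 0.17 against MI mice (edgeR adjusted p = 0.95) and 0.11 ± 0.17 against sham vehicle mice (adjusted p = 0.963). In MI against sham vehicle mice it was 0.03 ± 0.18. Without sham vehicle mouse 3 the sham vehicle mean was 49.7 CPM in place of 60.9 CPM, and the fold change of NECA-treated MI mice was 0.30 ± 0.18 and did not pass (adjusted p = 0.621). That of MI mice was then 0.21 ± 0.19.

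Hsd11b1 (ENSMUSG00000016194), which encodes the reductase that makes corticosterone from its inactive keto form, had 11.1, 12.2, 14.5 and 10.4 CPM in NECA-treated MI mice. It had 9.77, 8.23 and 5.21 CPM in MI mice and 5.15, 11.3 and 14.1 CPM in sham vehicle mice. NECA-treated MI mice lay wholly above MI mice, the 1 member to do so, beside 7.36% of tested genes whose groups did not overlap in that comparison. The log2 fold change was 0.63 ± 0.38 and did not pass (edgeR adjusted p = 0.835). The MI values rested on 5 to 11 counts, and the 1st library of MI mouse 2 had 15.0 CPM, above all NECA-treated MI mice. With the 1st libraries the fold change was 0.10 ± 0.35. Against sham vehicle mice NECA-treated MI mice had 0.18 ± 0.35 (adjusted p = 0.978), and MI against sham vehicle mice had -0.45 ± 0.41. That last value was -0.25 ± 0.47 without sham vehicle mouse 3, whose 14.1 CPM compare with a mean of 8.21 CPM in the 2 others, and 0.09 ± 0.39 with the 1st libraries, so its sign was not stable.

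Of 16 genes of receptor chaperones, coactivators, corepressors and related enzymes, 15 were tested. None rose or fell (edgeR, DESeq2 and limma), and the median log2 fold changes were 0.15 in NECA-treated MI against MI, -0.0025 in NECA-treated MI against sham vehicle and -0.21 in MI against sham vehicle mice. In that order of comparisons, 2, 3 and 2 of the 15 had an unadjusted p under 0.05. Of all 9505 tested genes, 577, 573 and 1139 had such a p. With the libraries of a mouse summed, the medians were 0.27, -0.00071 and -0.35, and 3, 3 and 5 genes of the list had such a p. Of the 9688 genes tested then, 1060, 411 and 1444 had one. Ncoa2, a coactivator that binds the receptor, had 0.68 ± 0.28 in NECA-treated MI against MI mice (adjusted p = 0.793) and -0.69 ± 0.30 in MI against sham vehicle mice (adjusted p = 0.380). MI mouse 3 was lowest for Ncoa2, at 12.5 CPM, against 40.2 to 52.5 CPM in NECA-treated MI mice and 39.4 to 50.3 CPM in sham vehicle mice. Hsp90aa1 and Stip1, a chaperone and its adaptor that load the receptor, had -0.58 ± 0.21 and -0.43 ± 0.16 in NECA-treated MI against sham vehicle mice (adjusted p = 0.805 each). Hsp90aa1 had 56.5 to 78.7 CPM in NECA-treated MI mice, which overlapped with the 62.6, 98.5 and 157 CPM of sham vehicle mice. The highest of these was that of sham vehicle mouse 3, and no fit without that mouse is given for these 2 genes. Nr3c2, the mineralocorticoid receptor gene, whose product also binds corticosterone, had -0.64 ± 0.30 in MI against sham vehicle mice (adjusted p = 0.412).

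TPM values, which divide by transcript length and sum to 1e6 per library, were read from the second deposited table. Mt1 had the highest TPM of the members, at 163 TPM in NECA-treated MI mice, 141 TPM in MI mice and 163 TPM in sham vehicle mice. Mt2 had 39.4, 42.1 and 27.7 TPM and Tsc22d3 had 36.2, 41.6 and 23.4 TPM in the same order of groups. Sgk1 and Nr3c1 followed, at 20.1 and 11.5 TPM in NECA-treated MI mice, and the other 5 members lay between 4.37 TPM for Zbtb16 and 8.73 TPM for Hsd11b1 there. Zbtb16 also had the lowest TPM in MI mice, at 2.78 TPM, and in sham vehicle mice, at 2.01 TPM. Reads from 3′ ends do not grow in number with length, so division by length lowers the TPM of long transcripts. The order by CPM differed. Mt1 had a mean of 62.8 CPM in NECA-treated MI mice, below Tsc22d3 at 69.3 CPM and Nr3c1 at 67.8 CPM. Mt2 had 13.3 CPM there, below Zbtb16 at 20.4 CPM. In sham vehicle mice Mt1 was highest by CPM too, at 63.9 CPM.

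Beyond the members, 28 further genes known to be induced by glucocorticoids were listed, of which 25 were tested. None rose or fell in any comparison by edgeR, DESeq2 or limma. The median log2 fold change was 0.02 in NECA-treated MI against MI mice, 0.15 in NECA-treated MI against sham vehicle mice and 0.14 in MI against sham vehicle mice. In this order, 3, 3 and 7 of the 25 had an unadjusted p under 0.05, beside 577, 573 and 1139 of 9505 tested genes. With summed libraries the median in MI against sham vehicle mice was 0.03, with 4 such genes, beside 1444 of 9688 tested genes. Fold changes lay on both sides of 0 in each comparison.

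Per1, a clock gene that glucocorticoids induce directly, had 53.3, 52.9, 75.3 and 74.4 CPM in NECA-treated MI mice, 53.3, 67.9 and 76.0 CPM in MI mice and 40.3, 33.8 and 16.5 CPM in sham vehicle mice. Both infarcted groups lay above the sham vehicle mice, with log2 fold changes of 1.002 ± 0.29 for NECA-treated MI mice (edgeR adjusted p = 0.715) and 1.02 ± 0.31 for MI mice (adjusted p = 0.247). Groups did not overlap for 7.94% and 13.5% of tested genes in these comparisons, and Per1 was named for its low p. In MI mouse 2, Per1 had 31.2 CPM in the 1st library, below the highest sham vehicle mouse. The lowest value, 16.5 CPM, was that of sham vehicle mouse 3, and no fit without that mouse is given for Per1. The 9 of 10 listed clock genes with a row, none of them at 0, summed to 528 to 610 CPM in NECA-treated MI mice, 545 to 662 CPM in MI mice and 375 to 471 CPM in sham vehicle mice. No hour of sampling was given in the sources used here, and the part of the clock in the levels of the members was not tested.

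Bcl6, a repressor of inflammatory genes, had 16.3 ± 6.02 CPM in NECA-treated MI mice, 21.5 ± 9.18 CPM in MI mice and 6.79 ± 4.66 CPM in sham vehicle mice (SD, n = 4, 3 and 3). Its log2 fold change was 1.20 ± 0.40 in NECA-treated MI against sham vehicle mice (edgeR adjusted p = 0.757) and 1.56 ± 0.42 in MI against sham vehicle mice (adjusted p = 0.229). Klf15, a regulator of cardiac metabolism, and Lpin1, a phosphatidate phosphatase gene, lay the other way in MI mice. Klf15 had 42.1, 39.0, 35.9 and 45.2 CPM in NECA-treated MI mice, 24.0, 34.0 and 16.7 CPM in MI mice and 42.9, 28.6 and 37.7 CPM in sham vehicle mice. NECA-treated MI mice lay above MI mice for Klf15 in either library, with a log2 fold change of 0.71 ± 0.25 that did not pass (adjusted p = 0.793). Groups did not overlap for 7.36% of tested genes in that comparison at matched depth. Lpin1 had 135 ± 20.1 CPM in NECA-treated MI mice, 98.0 ± 28.5 CPM in MI mice and 153 ± 14.5 CPM in sham vehicle mice. Its log2 fold change was 0.46 ± 0.20 in NECA-treated MI against MI mice (adjusted p = 0.793) and -0.70 ± 0.21 in MI against sham vehicle mice (adjusted p = 0.247).

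**Figure D4:**
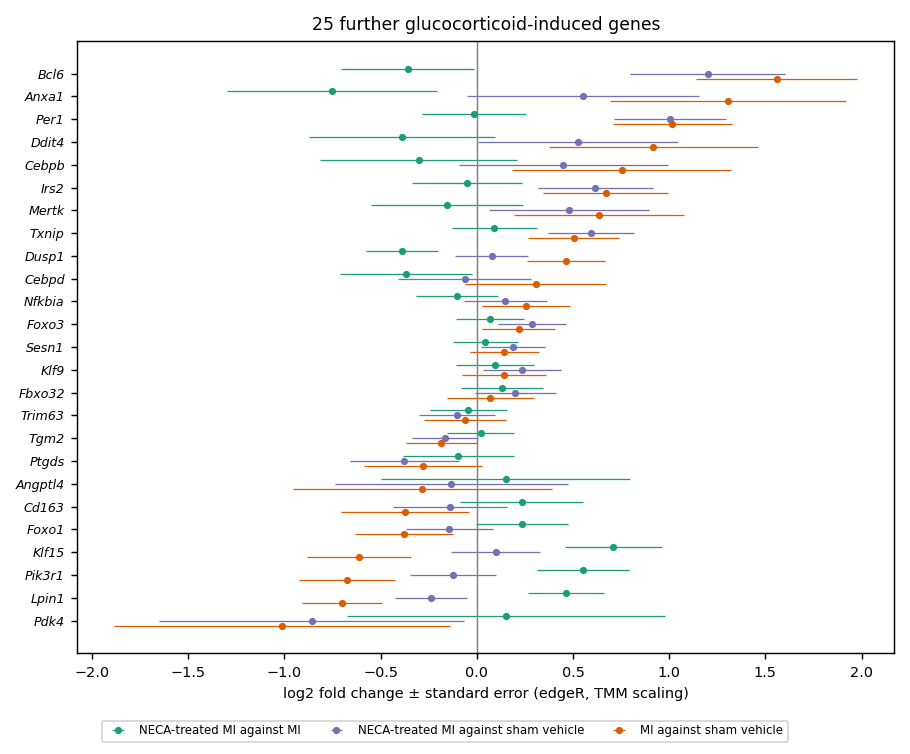
Log2 fold change (x axis, bars of 1 standard error) of 25 further glucocorticoid-induced genes (y axis, ordered by MI against sham vehicle mice) in 3 comparisons. Bcl6 stands at the top at 1.56 in MI against sham vehicle mice, Lpin1 lies near the bottom at -0.70, and genes lie on both sides of 0 in every comparison.

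Among 13 inflammatory genes that the receptor represses, 4 had enough counts to be tested, and 0 rose or fell in any comparison (edgeR and DESeq2). All 4 fold changes were negative in NECA-treated MI against MI mice, with a median of -0.22, and all 4 were positive in MI against sham vehicle mice, with a median of 0.43. Both comparisons hold the same 3 MI mice, so high values in these mice alone give opposite signs. The 13 genes summed to 183 CPM in MI mouse 3, against 101 and 83.4 CPM in the other MI mice. Nfkb1 had -0.03 in the first comparison and Nos2 had 0.01 in the second. NECA-treated MI against sham vehicle mice had a median of 0.12. An unadjusted p under 0.05 was found for 2 of the 4 genes, both in MI against sham vehicle mice, beside 1139 of 9505 tested genes. With summed libraries, 1 of the 4 was positive in NECA-treated MI against MI mice, and 1 had such a p in MI against sham vehicle mice. Icam1, an adhesion molecule gene of activated endothelium, had -0.61 ± 0.32 in NECA-treated MI against MI mice (adjusted p = 0.830) and 0.75 ± 0.34 in MI against sham vehicle mice (adjusted p = 0.401). Vcam1, another such gene, had -0.34 ± 0.28 and 0.83 ± 0.32 in these comparisons, with the highest level, 57.3 CPM, in MI mouse 3. In NECA-treated MI against sham vehicle mice, Vcam1 had 0.49 ± 0.30 and Nfkb1 had 0.09 ± 0.19. The 3 paralogs of Tsc22d3 were tested as well, and 0 rose or fell or had an unadjusted p under 0.05 in any comparison (edgeR and DESeq2). Tsc22d4 had 0.23 ± 0.19 in NECA-treated MI against MI mice, -0.08 ± 0.19 in NECA-treated MI against sham vehicle mice and -0.32 ± 0.20 in MI against sham vehicle mice. Tsc22d2 had -0.19 ± 0.27 in the first of these, and Tsc22d1 had 0.07 ± 0.14 and 0.10 ± 0.15 in the others.

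MI mice 2 and 3 could be read in both of their libraries, which differ in depth and in which gene rows they hold, so the annotations behind them differ as well as the reads. The part of the annotation in the differences was not tested. In MI mouse 2 the 95% exact intervals of the 1st and 2nd library did not overlap for 4 of 10 members, Tsc22d3, Zbtb16, Sgk1 and Mt1, beside 25.2% of all tested genes. For Mt1 the intervals were 86.9 to 93.6 CPM (1st) and 24.2 to 48.9 CPM (2nd), a ratio of 2.58. For Zbtb16 they were 4.13 to 5.73 CPM (1st) and 8.64 to 25.5 CPM (2nd), a ratio of 0.316. In MI mouse 3 the intervals overlapped for all 10 members, beside 6.06% of tested genes whose intervals did not. The 2 libraries of MI mouse 2 thus differed in either direction, by gene. The intervals cover counting error only.

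**Figure D5:**
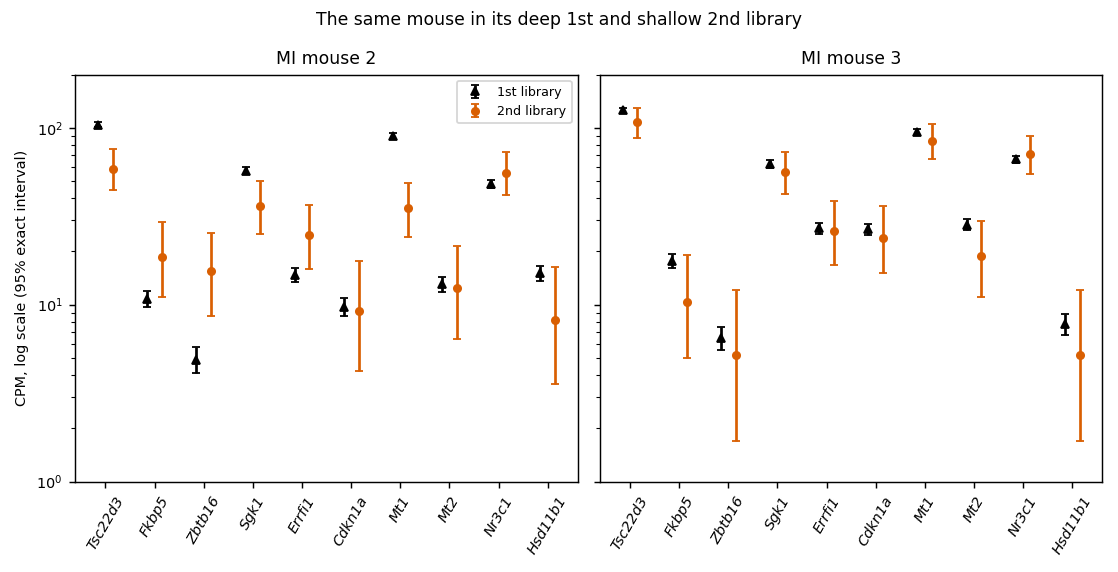
Level of the 10 genes in CPM (y axis, log scale) in the deep 1st (triangles) and shallow 2nd (dots) library of MI mice 2 and 3, with 95% exact intervals of the counts. In MI mouse 2 the intervals are apart for Tsc22d3, Zbtb16, Sgk1 and Mt1, and in MI mouse 3 they overlap for every gene.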

How the data were processed

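Per the labels' protocols, total RNA was made into 3′ end libraries by a modified CEL-Seq2 protocol, without pooling. The submitters' processing notes name FastQC 0.11.9, STAR, RSEM and the build GRCm39. No annotation release and no use of molecular identifiers or strand was given in the sources used here. Deposited by the authors were expected counts per gene, as whole numbers, and log2(TPM + 1) values, from which TPM was read back. Of 57054 rows, 306 had values only in the 1st libraries and 101 lacked values there, so 56647 were used. Symbols came from GENCODE M21 by Ensembl identifier (52029 of 56647 rows).

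The mouse was the replicate. Counts of 10 mice, 1 library each, were filtered with filterByExpr, scaled by TMM and fitted with edgeR 4.0.16 (quasi-likelihood, robust, R 4.3.3). P-values were adjusted by Benjamini-Hochberg over 9505 genes, with a threshold of 0.05. The fit was also run on simulated data, with larger changes than those of the members and in genes above the level of the low members. That run cannot tell how well smaller changes in low genes are found. Exact intervals are Clopper-Pearson, and they and the limit of 3 counts cover counting error only. In all, 20 other settings were run, among them DESeq2 1.42.0, limma 3.58.1 on log2(TPM + 1), another scaling, no filter, the 1st libraries, and leaving out each mouse. The setting without sham vehicle mouse 3 and with summed libraries was chosen after seeing the data. The settings reuse the same mice, so a sign that holds in all of them is not a separate test.

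The members and gene lists were chosen with earlier results of these data known. Named were all members, up to 2 genes per list and comparison of lowest p where none passed, and the 5 genes most like Tsc22d3. A gene that this rule names is not reported here. Mice that share a number in different groups were not treated as pairs: the correlations of their deviations from the group means ran from -0.23 to 0.19. Promoters are RefSeq, on GRCm38.p6, which is not the build of the counts. They were searched for 8 members. None was found for Zbtb16, and Nr3c1 was left out of the search, so these genes are named only.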

Additional observations from a re-analysis of the deposited data

How the results depend on the processing

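Over the 20 other settings, no member passed the threshold in a comparison of NECA-treated MI mice with MI or sham vehicle mice, the replicate block included (0 members in each of the 3 comparisons). In MI against sham vehicle mice the count was 1 with the libraries of a mouse summed, with the 1st library in place of the 2nd and with no count filter. It was 0 elsewhere. That contrast chose the set around Tsc22d3, so this count is not independent of the choice and nothing is read from it. In those settings 15 of 9688, 12 of 9691 and 191 of 20308 tested genes passed. Signs of some fold changes turned. In MI against sham vehicle mice, Zbtb16 (0.46) ranged from -0.54 to 0.88, Hsd11b1 (-0.45) from -0.70 to 0.27 and Mt1 (-0.27) from -0.56 to 0.24, each turning in 3 of 20 settings. Cdkn1a ranged from -0.34 to 0.34 there, positive in 14 settings and negative in 6. Nr3c1 ranged from -0.098 to 0.21, positive in 15 and negative in 5, and Sgk1 from -0.032 to 0.67, negative in 1. In NECA-treated MI against MI mice, Sgk1 had -0.20 with summed libraries, -0.21 with the 1st libraries, -0.26 with limma on TPM and -0.20 with summed libraries and without sham vehicle mouse 3. Mt1 had -0.33, -0.34 and -0.33 under the first, second and last of these, and Fkbp5 had -0.32 with limma. Leaving out 1 mouse gave ranges of -0.093 to 0.43 for Fkbp5, -0.023 to 0.16 for Sgk1, -0.48 to 0.0603 for Cdkn1a, -0.029 to 0.47 for Mt1 and -0.18 to 0.0030 for Mt2. In NECA-treated MI against sham vehicle mice the ranges were -0.52 to 0.00026 for Cdkn1a, -0.26 to 0.069 for Mt1 and -0.068 to 0.38 for Hsd11b1. There Cdkn1a had 0.0065 with summed libraries and without sham vehicle mouse 3, and Errfi1 had -0.028 with limma. The cause of these turns was not tested.

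The number of tested genes past the threshold in MI against sham vehicle mice was 7, against the counts above, 13 with DESeq2, 0 with limma (897 genes at an unadjusted p under 0.05) and 0 with the mice of the pair alone (728). It was 50 without sham vehicle mouse 3, 0 without sham vehicle mouse 2 (850) and 1 without MI mouse 3. NECA-treated MI against sham vehicle mice had 1, and 4 with the replicate block or no scaling, 7 with the mice of the pair alone, 2 with DESeq2, 5 without sham vehicle mouse 3, 7 without MI mouse 3 and 43 with no filter. It was 0 with summed or 1st libraries (411 and 408 genes at an unadjusted p under 0.05), with summed libraries and without sham vehicle mouse 3 (636), and with limma (467), and 0 without NECA-treated MI mouse 2, 3 or 4 or sham vehicle mouse 2 (421, 446, 508 and 486). Against MI mice the count was 0, with 577 genes at an unadjusted p under 0.05, and it was 1 with summed or 1st libraries and with summed libraries and without sham vehicle mouse 3, 2 without MI mouse 1 and 8 with no filter. Depth limits the low members: Zbtb16, Hsd11b1, Cdkn1a, Mt2, Fkbp5 and Errfi1 rested on 5 to 31 counts a library.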
